A study of Mus musculus with 4 samples.

Results

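Npas3 fills 1 of the 39 tiles of a custom Agilent array, a tile being a stretch of genome covered by closely spaced probes, and was read by 9836 of its 48316 mouse probes. The probes were chosen by position alone, as those inside chr12:54340001-55190000 on the mm9 build. They cover chr12:54345487-55182412, 837 kb in all. Each probe is 60 bases long, the median step between probe starts is 60 bases and the largest step 2456 bases. The gene was taken to lie at about chr12:54350000-55173000 on the plus strand, which is the placement given with the definition of the region. That leaves 4.51 kb of probes before the start and 9.41 kb past the end. No mm9 gene annotation was used here, so exons, introns and untranslated regions could not be marked. In the RefSeq gene table on GRCm38, used only for names, order, length and distance, Npas3 spans 824 kb, against 823 kb for the stated placement. The same table puts the 3 long noncoding RNA genes Gm51419, 1700030L22Rik and Gm35614 wholly inside the span of Npas3. Their lower ends lie 5.11, 50.7 and 584 kb past that of Npas3, and they are 53.5, 18.4 and 49.1 kb long. The nearest protein-coding neighbours of Npas3 are Akap6 before the start and Egln3 past the end, and the gene next past the end is the noncoding Gm35818.

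The samples were 2 arrays of embryonic stem cells (ESC 1 and ESC 2) and 2 of neural progenitor cells (NPC 1 and NPC 2). Both groups come from the 46c line, a mouse stem cell line known for a fluorescent reporter in a neural gene. The stem cells were kept in GMEM with supplement, and the progenitors were made from them with the N2B27 protocol, which uses serum-free medium. No genetic change sets the groups apart, and both are models from 1 cell line. RNA was extracted from nuclear chromatin made without RNase A. It was then amplified across the whole transcriptome, and random priming added the Cy3 label. Such material carries no strand, so RNA of the genes inside Npas3, or antisense to it, gave the same signal as Npas3 RNA. Whether ESC 1 and ESC 2, or NPC 1 and NPC 2, come from separate cultures is not stated. Markers of the 2 cell types were not read, because their genes were not placed on mm9 here.

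Npas3 encodes a transcription factor of the basic helix-loop-helix PAS family, whose members bind DNA as pairs with a partner such as Arnt or Arnt2. It is known for its expression in the developing nervous system and for a role in the birth of neurons in the hippocampus. Nearly all of a gene of this length is intron, so nuclear RNA over it is read mainly as unspliced transcript. In such RNA, the signal along a gene follows both how far polymerases have moved and how quickly introns are removed and degraded.

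The sequence before the start is shown because the step in signal described below falls near the stated start of the gene. It is the stretch of 250 bases before the RefSeq start of Npas3, at chr12:53248182-53248431 on the plus strand of GRCm38.p6, whose coordinates are not those of the mm9 probes. Capitals mark the CG dinucleotides.

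Npas3: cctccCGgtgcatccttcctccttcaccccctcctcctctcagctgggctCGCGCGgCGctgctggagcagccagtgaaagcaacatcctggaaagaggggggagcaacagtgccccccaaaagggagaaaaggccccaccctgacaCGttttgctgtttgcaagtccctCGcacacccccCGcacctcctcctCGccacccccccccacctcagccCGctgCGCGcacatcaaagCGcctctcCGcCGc

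The stretch holds 15 CG dinucleotides, which read the same on both strands, and 66.4% of its bases are G or C. Of the 32851 stretches of the same length in the RefSeq table, 27.3% hold 15 or more, and the median stretch holds 6 with 52.4% G or C. The letters TATAAA are not in this window on either strand, while 12.4% of all the stretches hold them.

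Signal over Npas3 was near the lowest readable value in ESC and clearly above it in NPC. The median intensity of the tile was 2.75 fluorescence units in ESC 1, 3.12 in ESC 2, 48.1 in NPC 1 and 28.8 in NPC 2. The lowest value the scanner software writes was 2.70, 3.12, 2.79 and 2.19 on the same arrays. Both ESC medians were thus at that floor or next to it, and both NPC medians lay well over it. At the floor itself were 49.8% of the tile's probes in ESC 1, 50.8% in ESC 2, 10.02% in NPC 1 and 16.5% in NPC 2. Probes that the software marked as well above background made up 24.5% and 25.5% in ESC 1 and ESC 2, and 75.3% and 67.7% in NPC 1 and NPC 2. Negative control spots carried that mark at 2.27%, 2.42%, 1.67% and 1.36% on the 4 arrays. The ESC signal was therefore low but above that of the negative controls. Of the 39 tiles of the array, this one ranked 38 in the share of marked probes in ESC and 9 in NPC.

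On a log2 scale, a level here is the log2 intensity minus the 75th percentile of the array, taken over the 15356 probes marked on all 4 arrays, so that 0 is a bright probe. Averaged over windows of 5 kb, the level of the tile was -4.51 in ESC 1, -4.59 in ESC 2, -2.17 in NPC 1 and -2.88 in NPC 2. The groups did not overlap. The group means were -4.55 ± 0.05 in ESC and -2.53 ± 0.50 in NPC (SD, n = 2), a difference of 2.02 or 4.06-fold. The 15356 scaling probes include some of the tile's own, and with those left out the difference was 2.24. The tile was chosen because of the difference between ESC and NPC, so this difference and all its parts below are given as a description with no test. The size depends on how dim probes are treated and on the normalization. It was 0.59 with normexp, and 3.12 with the median over probes in place of the mean. Here and below, normexp stands for a background correction with an offset, which compresses low values, followed by quantile normalization. The parts of these 2 steps were not separated. In bulk samples, more cells with a transcript and more transcript per cell cannot be told apart.

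**Figure D1:**
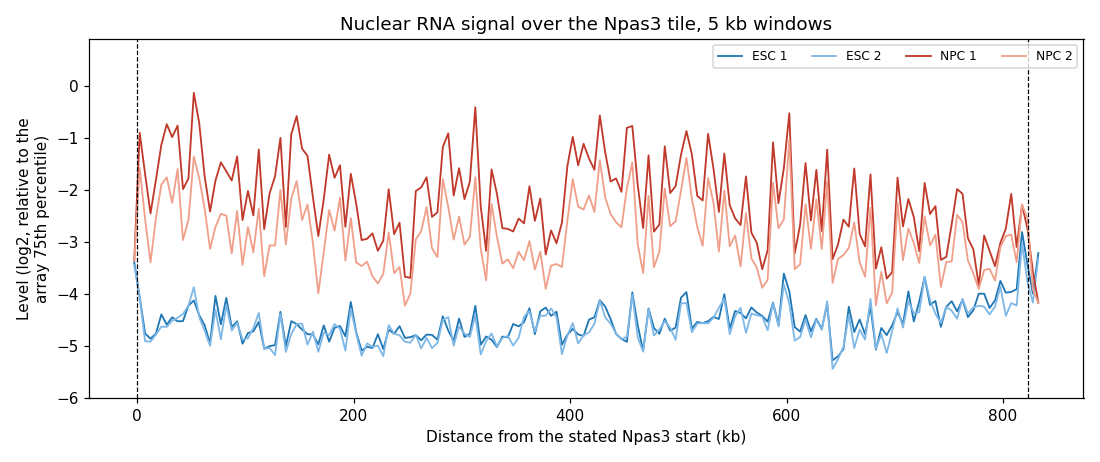
Level (log2, relative to the array's 75th percentile) in windows of 5 kb against distance from the stated Npas3 start (kb), 1 line per array; dashed lines mark the stated start and end. Both NPC lines lie above both ESC lines in all 164 windows inside the gene and meet or cross them at either edge.

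Of the 168 windows of the tile, NPC 1 and NPC 2 both lay above both ESC arrays in 167 and below both in 1. Of the 796 windows of all other tiles, they lay above both in 101 and below both in 556. In the limma fit over all 964 windows of the array, 163 of the 168 were called higher in NPC, 1 was called lower and 4 were not called (adjusted p under 0.05). Over the array 22.0% of the windows were called higher and 29.5% lower (212 and 284), and outside the tile 6.16% and 35.6%. These counts depend on the scaling. With the scaling percentile over all probes the array held 195 higher and 622 lower windows. With the tile's own probes left out of the scaling it held 226 and 64, and with scaling on a set of control spots 246 and 68. The contrast chose the tile, so nothing is read from these counts. The windows not called start at 54345001, 54725001, 55125001 and 55175001, and the lower one at 55180001. Of these 5, those at 54725001 and 55125001 lie inside the stated gene. Differences inside the gene ran from 0.24 to 3.48 with a median of 2.06, against a median of -0.34 over all windows. These values, too, move with the choice of scaling probes. Without ESC 1, and likewise without ESC 2, limma called none of the 168 windows, and at an unadjusted p under 0.05 it had 148 and 143 higher ones.

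Single probes gave the same picture with more spread. Of the 9836 probes, 3788 (38.5%) were well above background on both NPC arrays and on neither ESC array, while 15 showed the opposite. A further 1808 were above background on all 4 arrays and 1904 on none. The class with 38.5% of the probes and its opposite were not counted outside the tile. Over all probes of the array, 42.5% and 44.6% were marked in ESC 1 and ESC 2, and 54.1% and 54.3% in NPC 1 and NPC 2. For the first class only a lower limit of the fold can be given, with ESC set to the dimmest signal that was marked on the array, or to its own value if higher. Over 3783 such probes with a value on every array, this lower limit was 3.31-fold at the median probe, and 4-fold or more in 1598. The class was picked for signal in NPC and none in ESC, so a fold above 1 is largely set by that choice. Among 1775 probes measured on all 4 arrays the median fold was 2.09. Both NPC values lay above both ESC values in 1233 (69.5%) and below both in 121. Outside the tile, the median fold of 13336 probes measured on all arrays was 0.838. There both NPC values lay above both ESC values in 2029 (15.2%) and below both in 5147. All these folds move with the scaling, which used the tile's own probes too. Membership of the classes rests on the same signals, so these counts and folds are descriptions too.

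A minority of probes were bright in both cell types. Among the 9752 probes with a value on every array, the brightest in the ESC mean, at chr12:54348731-54348790, 1.27 kb before the stated start, read 4773 and 5170 units in ESC and 4799 and 1433 in NPC. It did not separate the groups. The brightest in the NPC mean, at chr12:54859150-54859209, read 3779 and 2761 units in NPC and 2154 and 1612 in ESC. In all, 136 probes exceeded the scaling percentile on both ESC arrays, and 108 of these also did so on both NPC arrays. On both NPC arrays 921 probes exceeded it. Probe sequences were not used here, so matches of these probes elsewhere in the genome were not examined.

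NPC signal extended from end to end of the gene without a long gap. The longest run of adjacent probes inside the gene that were unmarked on both NPC arrays was 13 probes over 0.859 kb, starting 225 kb from the start. Read in the same way, the longest run on both ESC arrays was 26 probes over 1.91 kb. At least 50% of the probes were marked in 162 of the 165 windows that touch the gene in NPC 1 and 159 in NPC 2, against 2 in ESC 1 and 1 in ESC 2.

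Along the gene, NPC signal was highest in 2 broad regions and lowest between and after them. In bins of 50 kb counted from the start, the first bin had a level of -1.43 in NPC 1 and -2.33 in NPC 2, with -4.51 and -4.55 in ESC. The level then went down in each NPC array over the next bins to -1.88 and -2.83 at 150 to 200 kb. The bin at 200 to 250 kb was the lowest of the 17 in the NPC mean, with -2.84 in NPC 1 and -3.55 in NPC 2. It was also the lowest in ESC, at -4.87 and -4.92. The bin at 400 to 450 kb was the highest in NPC, at -1.42 and -2.24, while ESC stood at -4.58 and -4.65. In this bin 85.9% and 76.8% of the probes were marked in NPC, against 65.6% and 57.2% at 200 to 250 kb.

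The NPC level was lower again toward the end of the gene. At 650 to 700 kb it was -2.83 in NPC 1 and -3.42 in NPC 2, and at 750 to 800 kb -2.92 and -3.33. The 3 whole bins nearest the end minus the first 3 bins gave -1.17 in NPC 1 and -0.72 in NPC 2. This difference is taken within an array and does not move with a scaling that shifts the whole array. It was negative in both NPC arrays, with a mean of -0.94 ± 0.32 (SD, n = 2). In ESC it was 0.24 and 0.20, with a mean of 0.22 ± 0.02. ESC thus went the other way, and its level rose from -4.51 and -4.55 in the first bin to -3.63 and -3.92 in the last 23 kb. There 42.5% and 40.1% of the probes were marked in ESC, the highest share of any bin. The size of the NPC difference was -0.41 with normexp and -0.59 when only probes above background in a group were kept. For ESC these values were 0.065 and 0.59.

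**Figure D2:**
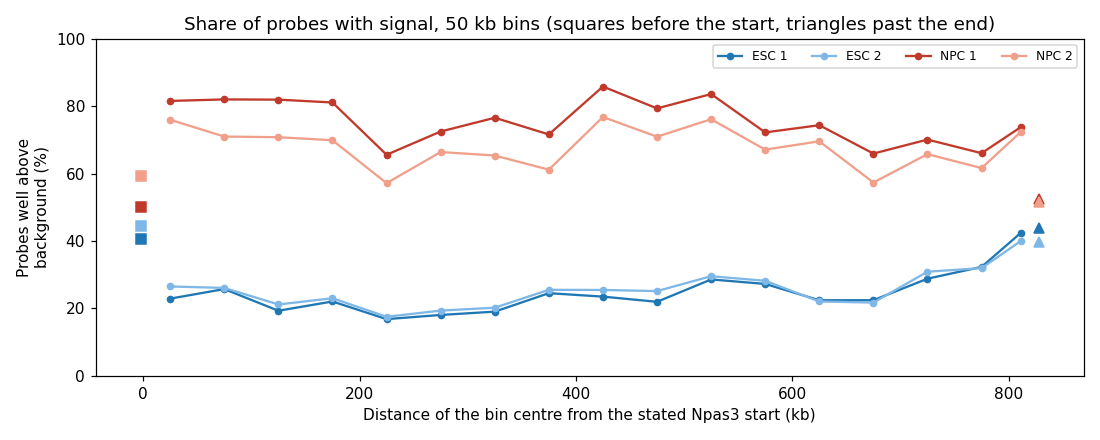
Percent of probes marked as well above background against distance from the stated Npas3 start (kb), for each array in bins of 50 kb, with squares for the probes before the start and triangles for those past the end. Inside the gene NPC 1 runs between 65.6% and 85.9% and NPC 2 between 57.2% and 76.8%, while both ESC arrays stay at or below 42.5%.

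Because ESC rose while NPC fell, the difference between the groups narrowed toward the end. It was 2.65 in the first bin, 2.78 at 400 to 450 kb, 1.08 at 750 to 800 kb and 1.14 in the last 23 kb. The decline was not even. A straight line through the 164 windows inside the gene had a slope of -0.13 per 100 kb in NPC 1 and -0.060 in NPC 2, and 0.060 and 0.051 in ESC 1 and ESC 2. Distance and level were related with Pearson coefficients of -0.38 in NPC 1 and -0.21 in NPC 2 across windows, which share a library and neighbour each other. The order of the 17 bins was nearly the same in both NPC arrays (Spearman coefficient 0.88) and in both ESC arrays (0.99). Between the ESC mean and the NPC mean it was unrelated (0.034).

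The largest steps along the gene, chosen in NPC 1 after its values were seen, recurred in NPC 2. A step compares the 25 kb after a point with the 25 kb before it. At 395 kb from the start the level rose from -2.77 to -1.32 in NPC 1 and from -3.49 to -2.24 in NPC 2. ESC did not share this rise, with -4.47 to -4.71 and -4.55 to -4.77. Other rises followed at 265 kb (1.03 in NPC 1 and 0.91 in NPC 2), 585 kb (1.12 and 1.03) and 485 kb (0.82 and 0.95). There both ESC arrays rose too, by less: 0.079 and 0.14 at 265 kb, 0.22 and 0.19 at 585 kb, and 0.31 and 0.26 at 485 kb. The deepest fall, at 200 kb, was -1.03 in NPC 1 and -0.90 in NPC 2, with -0.30 in each ESC array. Falls of -0.85 and -0.66 at 550 kb, of -0.84 and -0.84 at 460 kb and of -0.80 and -0.46 at 320 kb came next. In ESC the steps at these points were 0.068 and -0.016, -0.079 and -0.14, and -0.22 and -0.11. Rises were chosen apart from falls, and in order along the gene the 4 rises and 4 falls alternated. The 25 kb after the fall at 460 kb are the same as the 25 kb before the rise at 485 kb. Those of the fall at 550 kb and the rise at 585 kb overlap in part, so nothing is read from the alternation. By the GRCm38 distances the rise at 585 kb lies next to the lower end of Gm35614, whose part in it was not tested.

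Within these broad regions, single windows of 5 kb stood out. Peaks and dips were chosen in NPC 1 by their departure from the median of the windows within 25 kb, and then read on the other arrays. The peak that departed most, 600 kb from the start at chr12:54950001-54955000, had levels of -0.53 in NPC 1 and -1.04 in NPC 2. Its departure was 1.89 in NPC 1 and 1.90 in NPC 2, which was also the highest of the 164 windows in NPC 2. In ESC its levels were -3.95 and -4.18 and its departures 0.56 and 0.38. In this window 95.1% and 90.2% of the 61 probes were marked in NPC, and 39.3% and 34.4% in ESC. By the GRCm38 distances this peak and the dip at 605 kb, given below, fall inside the span of Gm35614. The peak at 50 kb and the dip at 10 kb fall inside that of Gm51419, and that peak also overlaps 1700030L22Rik. The part of these genes in the signal was not tested.

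The other 4 peaks start 50, 310, 635 and 660 kb from the start. In NPC 2 they departed by 1.05, 1.18, 1.30 and 0.73. The peak at 660 kb was the exception in ESC, where it departed by -0.017 and -0.21, while the other 4 peaks were above their surroundings in both ESC arrays. The window at 50 kb had the highest level inside the gene in NPC 1, -0.14, and read -1.36 in NPC 2.

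All 5 dips were also below their surroundings in NPC 2 and in both ESC arrays. The dip at 10 kb, chr12:54360001-54365000, departed by -1.47 in NPC 1 and -1.495 in NPC 2, and by -0.33 and -0.29 in ESC. That at 165 kb departed by -1.45 and -1.503, and by -0.30 and -0.38 in ESC. The dip at 605 kb adjoins the peak at 600 kb, with NPC levels of -3.22 and -3.53 there. At 250 kb the levels were -3.69 and -3.99 in NPC, against -4.83 and -4.94 in ESC. In ESC that window departed by only -0.043 and -0.055. The remaining dip, at 135 kb, departed by -1.43 in NPC 1 but by -0.58 in NPC 2.

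**Figure D3:**
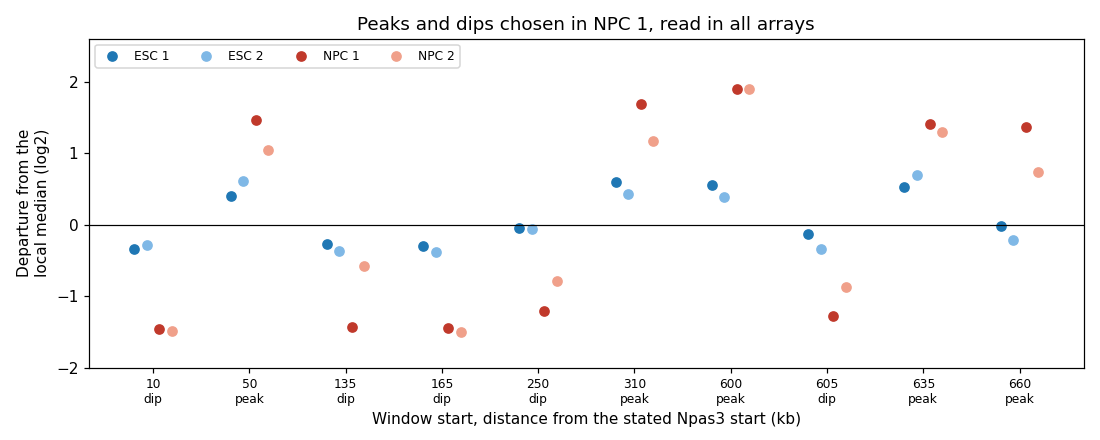
Departure from the median of the windows within 25 kb (log2), for the 5 peaks and 5 dips chosen in NPC 1, ordered by distance of the window from the stated Npas3 start (kb), 1 point per array. NPC 2 lies on the same side as NPC 1 in all 10 windows; ESC departs by at most 0.69 and lies on the other side only at 660 kb.

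The fine profile was repeatable within a group and partly shared between groups. Across the 164 windows, departures from the local median had a Pearson coefficient of 0.95 between the NPC arrays and 0.89 between the ESC arrays. Between an ESC and an NPC array it lay between 0.53 and 0.59. Windows share probes between arrays, so brightness that belongs to a probe enters all of these values, and its part was not tested. The spread of the departures was 0.72 and 0.64 in NPC 1 and NPC 2 and 0.30 and 0.31 in ESC 1 and ESC 2 (SD over windows).

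Near the stated start of the gene the NPC arrays left the ESC arrays within about 1 kb. From 54345487 to 54347000 all 4 arrays were near the floor, at -4.99 and -5.21 in ESC and -5.43 and -5.46 in NPC over 18 probes. From 54347001 to 54349000 they had signal in common, at -2.73 and -2.58 in ESC and -2.85 and -2.75 in NPC over 29 probes. The groups were level there. In the last 1 kb before the stated start, the 7 probes read -0.15 in NPC 1 and -0.47 in NPC 2, against -2.01 and -2.53 in ESC. All 7 were marked in both NPC arrays, and 4 and 5 of them in ESC. The stated start is approximate, so these probes may lie inside the gene. The next 1 kb was lower in every array, at -2.99 and -2.65 in NPC and -4.98 and -4.77 in ESC. The first 5 kb inside the gene stood at -0.90 and -1.58 in NPC and -4.06 and -4.07 in ESC.

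Averaged over all probes before the stated start, the order against the first 50 kb was opposite in ESC and NPC. That average joins the unlike stretches above, and across the stated start itself the level fell in both groups, as given above. The level of the 54 probes before the start was -3.39 and -3.45 in ESC and -3.36 in each NPC array. That is above the first 50 kb of the gene in ESC, at -4.51 and -4.55, and below it in NPC, at -1.43 and -2.33. An exception inside the gene was the stretch 54353001-54354000, where 5 probes read -1.30 and -0.91 in ESC and -0.86 and -1.02 in NPC. The groups met there.

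The end of the gene was less sharp. Over the last 10 kb inside, 121 probes read -3.19 and -3.39 in ESC and -2.57 and -2.36 in NPC. In the stretch 55169001-55170000 all arrays were bright, with -1.28 and -1.37 in ESC and -1.01 and -0.40 in NPC. At 55171001-55172000 NPC alone was bright, with -0.80 and -0.26 against -3.22 and -2.97 in ESC over 8 probes. In the last 1 kb before the stated end NPC 2, at -1.38, stood apart from NPC 1, at -3.36, which lay among the ESC values of -3.36 and -3.78.

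Past the stated end, 116 probes read -3.65 and -3.88 in ESC and -3.61 and -3.89 in NPC, and the groups overlapped. Relative to the last 10 kb inside the gene this was -1.04 in NPC 1 and -1.53 in NPC 2, and -0.46 and -0.49 in ESC. For NPC the mean was -1.29 ± 0.35 (SD, n = 2), and -0.45 with normexp, -0.83 with the authors' values and -0.82 without dim probes. For ESC the mean was -0.47 ± 0.02, and it turned to 0.033 without dim probes and to 0.051 against the last 25 kb. A fall at the stated end in ESC thus rests on these choices.

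The probes past the end were not alike. In the first 1 kb the groups overlapped, with -3.34 and -3.96 in NPC and -3.20 and -3.86 in ESC. The stated end is approximate too, so these probes may lie inside the gene. Over the first 4 kb as a whole NPC read -2.78 and -3.30 and ESC -3.38 and -3.65, a difference of 0.47 in the mean. From 4 to 7 kb past the end the values were -4.28 and -4.47 in NPC and -4.39 and -4.69 in ESC, a difference of 0.16. In the last 30 probes, from 55180001, ESC was the higher group, with -3.22 and -3.31 against -4.17 and -4.17. This is the window called lower above. Nothing in the files names a transcript there.

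**Figure D4:**
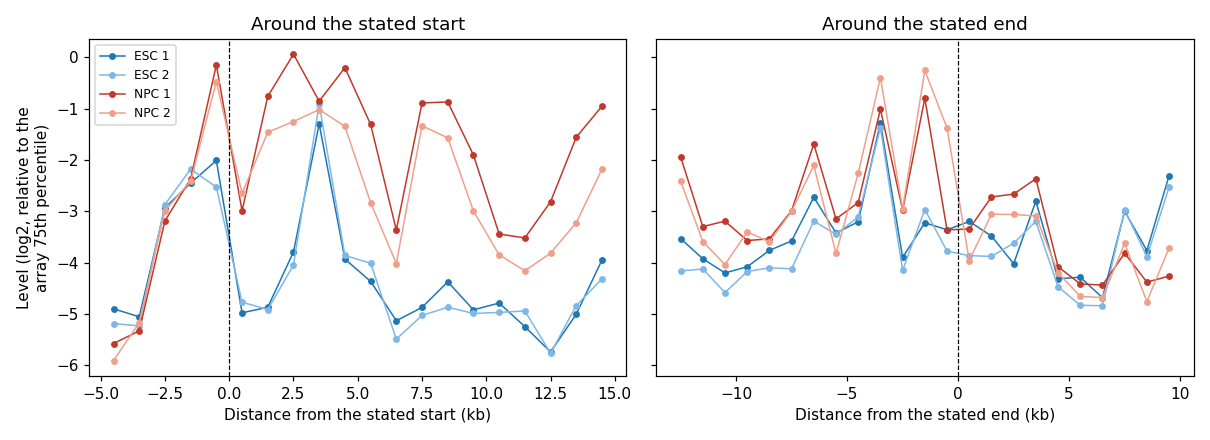
Level (log2, relative to the array's 75th percentile) in steps of 1 kb around the stated start (left) and the stated end (right) of Npas3, 1 line per array, against distance in kb. The NPC lines leave the ESC lines in the last 1 kb before the stated start, which is approximate. Past the end the NPC mean is below the ESC mean in the first step and above it from 55174001 to 55180000, by 0.02 to 0.96. Both NPC arrays lie below both ESC arrays from 55180001 on.

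The NPC arrays differed from each other over Npas3, and this difference itself changed along the gene. NPC 1 was above NPC 2 by 0.89 in the first 50 kb, by 0.97 at 100 to 150 kb, by 0.82 at 400 to 450 kb, by 0.40 at 750 to 800 kb and by 0.18 in the last 23 kb. The matching values of ESC 1 minus ESC 2 were 0.037, 0.038, 0.071, 0.10 and 0.29. In the windows of the tile NPC 1 was higher in 166 of 168, with a median difference of 0.71. In the 796 windows of the other tiles it was higher in 499, with a median of 0.092. The Npas3 tile was not alone in this: by tile means its difference of 0.71 ranked 2 of 39, after 0.76 for the tile starting at chr17:35634951 and before 0.69 for that starting at chr11:102764914.

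Windows of like NPC level were also set side by side. Where the NPC mean lay between -2.5 and -1.5, the median of NPC 1 minus NPC 2 was 0.81 over 66 windows of the tile and 0.32 over 84 windows of other tiles. Between -3.5 and -2.5 it was 0.65 over 73 windows and 0.076 over 135. In ESC the median difference was 0.066 in the tile and 0.0095 elsewhere. With 1 array on each side, no test of this difference can be made. Its excess over the other tiles was 0.61, and 0.22 with normexp and 0.40 without dim probes.

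**Figure D5:**
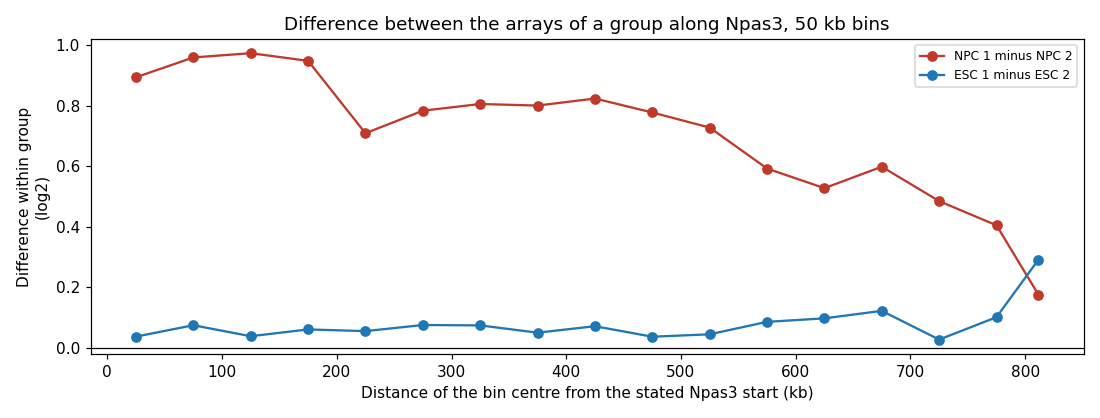
Difference between the arrays of a group (log2) in bins of 50 kb against distance from the stated Npas3 start (kb), for NPC 1 minus NPC 2 and for ESC 1 minus ESC 2. The NPC difference goes from 0.89 in the first bin to 0.18 in the last, and the ESC difference stays between 0.027 and 0.29.

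The 3 tiles whose pattern over the 4 arrays was nearest to that of Npas3 lie at chr3:34331150-34581595, chrX:58141136-58153474 and chr2:147845839-147880996. Likeness was the Euclidean distance between the 4 tile means after each tile's own mean was removed, and came to 1.52, 1.53 and 1.66. The chromosome 3 tile read -3.72 and -3.81 in ESC and -3.08 and -3.37 in NPC. For the chromosome X tile the levels were -3.33 and -3.32 in ESC and -2.81 and -2.46 in NPC. The chromosome 2 tile stood at -3.91 and -3.99 in ESC and -3.55 and -3.37 in NPC. In the X and chromosome 2 tiles NPC 2 lay above NPC 1, unlike in the Npas3 tile. The distances are close to one another and rest on 4 arrays.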

How the data were processed

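The members, the intervals and the measures were chosen with earlier results of these data known. The deposited scanner files give spot intensity, background-subtracted by Agilent Feature Extraction 11.5.1.1 with low values set to a floor, per the file headers, and the same files give the yes or no marks. All 4 arrays are from 1 slide. Spots that the program marked as outliers on an array were dropped there (14 to 25 of the tile's probes). Probe levels were averaged per 5 kb window (5 probes or more) and fitted with limma 3.58.1 in R 4.3.3 (lmFit, eBayes, Benjamini-Hochberg over all windows), after a test on simulated data. Bins, edges, peaks and steps were computed per array in Python 3.11.15. The series table holds the authors' own log2 values, judged as log2 from the values; their normalization is not given in the sources used here, while limma, unversioned, stands in the submitters' processing notes. The ESC 1 column followed its scanner file less closely (Spearman 0.873) than the other columns followed theirs (1). Of the tile's probes, 724 have no value there. The normexp alternative used median spot signals, with an offset of 50, and quantile normalization, in place of the mean signals planned.

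The named positions were fixed as a rule: the probes before the start, each 50 kb bin, the probes past the end, 5 peaks and 5 dips of windows with at least 10 probes chosen in NPC 1, peaks at least 20 kb from other peaks and dips from other dips, and the 3 tiles of nearest pattern. The 1 kb edges and the steps (rises at least 50 kb from other rises, falls from other falls) were added after the values were seen. Exact tests of 2 against 2 arrays were not used. P-values reflect the spread between single arrays, which may be technical, and the number of arrays limits the precision.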

Additional observations from a re-analysis of the deposited data

How the results depend on the processing

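The difference between NPC and ESC over the Npas3 tile kept its direction in all 12 alternatives, from 0.59 to 3.12. It was 0.59 with normexp and quantile normalization, 2.71 with dim probes left out and 3.12 with the median over probes. All of these change how the floor enters, and the first also makes the arrays alike in distribution. Leaving out 1 array at a time gave 1.67 to 2.38. Windows called higher were 158 to 166 in the alternatives that kept windows of 5 kb and all arrays. They were 372 of 418 windows of 2 kb and 83 of 85 windows of 10 kb, where the number tested differs. Leaving out 1 array gave 0 to 165: without either ESC array none passed. The labels share replicate numbers, but nothing says that a number marks a shared culture. The deviations of same-numbered arrays had a correlation of 0.047 over all windows and -0.26 over those of the tile. A correlation leaves out a shift common to all windows, so it cannot show whether same-numbered arrays share a culture. With the replicate block, 164 windows were called higher and 1 lower.

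The change along the gene in NPC kept its sign in all 7 alternatives: -0.41 with normexp, -0.59 with dim probes left out, and -1.17 to -0.72 with 1 NPC array. In ESC it was 0.065 with normexp, 0.38 with the authors' values, 0.59 without dim probes, 0.45 with the median over probes, 0.29 with bins of 100 kb, and 0.20 to 0.24 with 1 ESC array. The change past the end in NPC was -0.45 with normexp, -0.83 with the authors' values, -0.82 without dim probes, and -1.53 to -1.04 with 1 NPC array. In ESC it was -0.14, -0.24 and 0.033 under the same 3, -0.59 with the median over probes, 0.051 against the last 25 kb, and -0.49 to -0.46 with 1 ESC array. The cause of these changes was not tested. Most ESC probes were at or near background, so ESC levels and the size of every ESC difference are poorly measured.

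Alternatives for the difference between the NPC arrays were chosen after the data had been seen.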
